A study of Mus musculus with 4 samples.

Results

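Absorption of dietary fat and the building of chylomicrons were described through 10 genes in 4 RNA-seq libraries of mouse intestine. The genes were Fabp1, Fabp2, Apoa1, Apoa4, Apob, Apoc3, Mttp, Cd36, Dgat1 and Npc1l1, taken by gene name as a fixed list. They make up 10 of the 55203 genes and 36 of the 141738 transcripts listed in every library. These genes, and the lists of markers and other genes used below, were chosen with earlier results of these data known. RNA came from wild-type adult male C57BL/6NTac mice aged 8 to 12 weeks and kept specific-pathogen-free (SPF). Of the libraries, 2 were from tissue processed with 4 mM ribonucleoside vanadyl complex (RVC), which inhibits ribonucleases, and 2 were labelled fresh frozen, although 1 protocol text with an RVC rinse accompanied all 4. The labels do not say whether the 2 libraries of a group came from separate mice, so p-values measure only the spread between these libraries, which may be technical. Values are FPKM, fragments scaled to transcript length and to the size of the library, summed over the transcripts of a gene. Because FPKM is per length, levels of different genes can be set side by side.

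The sample labels name ileum and the protocol names distal colon. In the libraries, 7 of 7 distal colon markers found in the tables stood at 1 FPKM or more in all 4 libraries, with summed levels of 7027 to 7253 FPKM in RVC and 5300 to 6361 FPKM in fresh frozen. Of 10 markers of ileum and other small intestine, 4 did so, with summed levels of 9.93 to 11.7 FPKM in RVC and 11.2 to 11.6 FPKM in fresh frozen. Fgf15, an ileal hormone gene, was listed at 0 in all 4 libraries. The distal colon sum was led by Sprr2a2 and Car1, with means of 2728 and 1655 FPKM. Slc26a3, at a mean of 1115 FPKM, was counted both there and among the enterocyte and colonocyte markers used below. The Hox genes of the list were a small part of the sum, with means of 122 FPKM for Hoxb13, 21.3 FPKM for Hoxa13 and 20.2 FPKM for Hoxd13. The 4 libraries have 4 different batch numbers in the labels, so that effects of batch and of group cannot be told apart. In these bulk samples, fewer cells of a type and less RNA per cell cannot be told apart either.

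Absorptive cells of the small intestine take up fatty acids and cholesterol at the brush border, carry fatty acids on small binding proteins (FABPs), and rebuild triglyceride in the endoplasmic reticulum (ER). There the microsomal triglyceride transfer protein, encoded by Mttp, loads lipid onto apolipoprotein B, and further apolipoproteins join the particle, which leaves the cell as a chylomicron. This pathway is known chiefly from the jejunum and ileum, and the colon is known mainly for water and salt absorption and for use of short-chain fatty acids made by bacteria.

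The genes fell into a set that was read in every library and a set that was near 0 in every library. Apob, Fabp2, Dgat1 and Cd36 stood at 1 FPKM or more in all 4 libraries, so 4 of 10 members were on by that threshold, where 50.5% of the 21553 protein-coding genes were. Apoc3, Fabp1, Apoa1, Npc1l1 and Apoa4 stayed below 1 FPKM in all 4 libraries. Mttp lay at the threshold, below it in both RVC libraries and above it in both fresh-frozen libraries. Counted by library, 4 members were on in RVC 1 and RVC 2 and 5 in fresh frozen 1 and fresh frozen 2. The difference was Mttp, whose coding transcripts alone were below 1 FPKM in every library. Of the 21553 protein-coding genes, 11488 and 11506 were on in RVC 1 and RVC 2. In fresh frozen 1 and fresh frozen 2 these numbers were 11284 and 11514. The lower confidence bounds in the files are per transcript, and they were summed here over the transcripts of a gene. The sums were above 0 in all 4 libraries for the 5 most abundant genes, Mttp included. They were 0 in every library for the other 5.

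**Figure D1:**
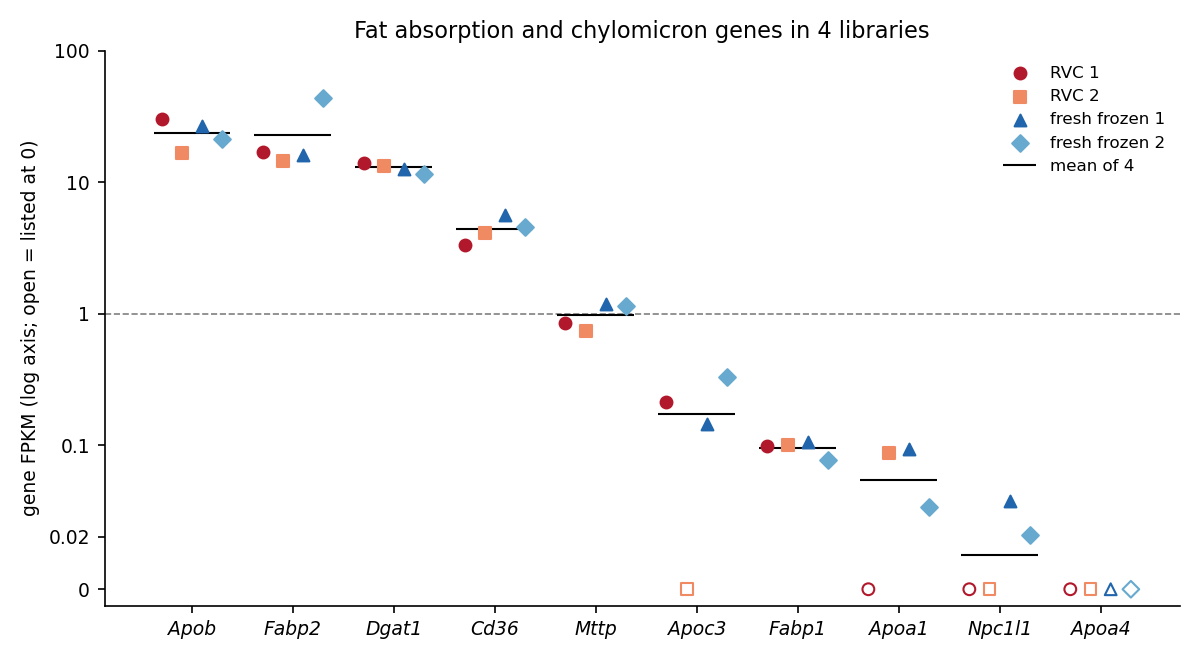
Gene FPKM (log axis) of the 10 genes, ordered by their mean, with 1 point per library and a line at the mean of 4 libraries. Open symbols are values listed at 0, and the dashed line is 1 FPKM. Apob, Fabp2, Dgat1 and Cd36 lie above the line in every library, Mttp straddles it, and Apoa4 is listed at 0 throughout.

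The stretch just upstream of the transcript start is printed for 3 genes, for the pair of binding-protein genes among the members (Fabp2 on, Fabp1 near 0) and for the most abundant member, Apob. Sequences are from RefSeq promoter windows of build GRCm38.p6, each of which matched GRCm39 at 1 place near its gene, and coordinates are GRCm39. They are printed on the + strand up to the base before the start of the listed transcript, 5′ to 3′. Capitals mark matches to TTTATNG or CCATAAA, letters of the kind bound by CDX proteins, on either strand.

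Fabp2, chr3:122688471-122688720: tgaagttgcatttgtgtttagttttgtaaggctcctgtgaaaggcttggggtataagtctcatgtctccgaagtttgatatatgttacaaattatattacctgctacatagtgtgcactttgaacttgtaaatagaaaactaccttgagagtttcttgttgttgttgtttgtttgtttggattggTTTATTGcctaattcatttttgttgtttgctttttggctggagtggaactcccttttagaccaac
Fabp1, chr6:71176613-71176810: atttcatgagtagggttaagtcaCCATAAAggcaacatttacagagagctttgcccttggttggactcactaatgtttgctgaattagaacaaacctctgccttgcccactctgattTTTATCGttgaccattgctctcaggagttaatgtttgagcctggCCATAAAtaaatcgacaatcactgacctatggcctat
Apob, chr12:8027427-8027647: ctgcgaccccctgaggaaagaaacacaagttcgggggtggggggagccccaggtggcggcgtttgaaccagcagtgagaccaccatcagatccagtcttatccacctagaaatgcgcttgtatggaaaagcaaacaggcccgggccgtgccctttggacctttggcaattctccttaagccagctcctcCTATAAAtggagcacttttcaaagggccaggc

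The CDX-type letters were present upstream of genes that were on and of one that was off. Fabp1, near 0, held 3 matches, beginning 175, 81 and 37 bases before the start of its listed transcript. Fabp2 held 1 match at 65 bases and Apob 1 at 32 bases. The start used by the RefSeq window lies further downstream for Fabp1 and Apob. Counted from it, the distances were 227, 133 and 89 bases for Fabp1, 61 for Apob and again 65 for Fabp2. The CCATAAA matches of Fabp1 also match TTTATNG on the opposite strand, and the Apob match contains the letters TATAAA. Windows of 300 bases were found for 8 of the 10 members, all except Dgat1 and Apoc3. TTTATNG was in the windows of 3 of these 8 genes and in 10.9% of 32851 RefSeq windows, and CCATAAA was in 1 of 8 and in 2.75% of all windows. The HNF4-type letters CAAAGTCCA and CAAAGGTCA and the GATA-type letters AGATAA were in 0 of the 8, where 0.475%, 0.478% and 11.2% of all windows held them. A match is a description of letters and not of a bound site.

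Uptake at the cell surface was examined first. Cd36 (ENSMUSG00000002944, chromosome 5, 17986688 to 18093799, GRCm39), a membrane receptor for long-chain fatty acids, measured 3.33 and 4.13 FPKM in RVC and 5.60 and 4.58 FPKM in fresh frozen. Its mean was 4.41 ± 0.948 FPKM (SD, n = 4), and the groups did not overlap. Npc1l1 (ENSMUSG00000020447, chromosome 11, 6161013 to 6180143), which takes up cholesterol and is the target of ezetimibe, was listed at 0 in RVC 1 and RVC 2 and stood at 0.0374 FPKM in fresh frozen 1 and 0.0205 FPKM in fresh frozen 2. Both of its values above 0 had a lower bound of 0, so the gene was near the lower end of what these libraries can show.

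Cd36 is also made by capillary endothelium, macrophages and fat cells. Of 8 endothelial markers, 5 were at 1 FPKM or more in all 4 libraries, and their summed level was 25.0 to 25.9 FPKM in RVC and 13.2 to 18.0 FPKM in fresh frozen, the opposite order to Cd36. Of 8 macrophage markers, all 8 were, with sums of 58.9 to 61.2 FPKM in RVC and 37.9 to 46.5 FPKM in fresh frozen. None of the 16 endothelial and macrophage markers was listed at 0 in any library. Among the endothelial markers, Pecam1, Cdh5, Kdr, Tie1, Emcn and Plvap were each higher in both RVC libraries. For the other endothelial markers, Rgcc and Gpihbp1, the groups overlapped. Rgcc measured 2.22 and 2.06 FPKM in RVC and 1.94 and 2.80 FPKM in fresh frozen. Gpihbp1 measured 1.47 and 1.11 FPKM in RVC and 0.420 and 1.43 FPKM in fresh frozen. Of 8 adipocyte markers only Pck1, which epithelial cells also make, was on in all 4 libraries. The 8 summed to 51.1 to 60.3 FPKM in RVC and 56.8 to 60.3 FPKM in fresh frozen, of which Pck1 alone was 49.2 to 57.3 FPKM over the 4 libraries. The 7 markers other than Pck1 summed to 3.00 and 1.82 FPKM in RVC and 4.94 and 3.37 FPKM in fresh frozen. Both fresh-frozen sums were the higher, as for Cd36, but within RVC the sum was higher in RVC 1 and Cd36 in RVC 2. Cidec and Lpl made up most of the sum in every library but fresh frozen 1. Adipoq, the defining fat-cell hormone gene, measured 0.0326 and 0 FPKM in RVC and 0.323 and 0.0825 FPKM in fresh frozen. The groups overlapped for Cidec, at 1.53 and 0.760 FPKM in RVC and 1.01 and 1.39 FPKM in fresh frozen. They also overlapped for Lpl, at 1.34 and 0.982 FPKM in RVC and 1.30 and 1.70 FPKM in fresh frozen. Cfd measured 1.66 FPKM in fresh frozen 1 and 0.157 FPKM in fresh frozen 2, against 0.105 and 0 FPKM in RVC. The part of these cells in the Cd36 level was not tested.

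The 2 intracellular fatty acid binding proteins of the list stood far apart, with Fabp2 on and Fabp1 near 0 in every library. Fabp2 (ENSMUSG00000023057, chromosome 3, 122688721 to 122693155), the intestinal form, measured 16.8 and 14.5 FPKM in RVC and 16.1 and 43.7 FPKM in fresh frozen. Fabp1 (ENSMUSG00000054422, chromosome 6, 71176811 to 71182007), the liver form, which is also abundant in the small intestine, measured 0.0982 and 0.0998 FPKM in RVC and 0.106 and 0.0770 FPKM in fresh frozen. Within a library, Fabp2 exceeded Fabp1 by 172-fold in RVC 1, 146-fold in RVC 2, 151-fold in fresh frozen 1 and 568-fold in fresh frozen 2.

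The Fabp1 value may rest on very few fragments. Its upper confidence bound was 3.00 times the estimate in each library, which is the ratio that a count of 1 fragment gives if the bound lies 2 square roots of the count above it. Read the same way, Fabp2 rested on 304 to 1174 fragments, and Npc1l1 on 4.00 in fresh frozen 1 and 3.00 in fresh frozen 2. This reading is approximate, since among genes with a single transcript and fewer than 20 such fragments only 57.0% to 58.7% per library came within 0.05 of a whole number. At such counts a difference in Fabp1 between libraries was not detectable. Of the other family members, Fabp5, Fabp4, Fabp6 and Fabp3 had means between those of Fabp2 and Fabp1, and Fabp12, Fabp7 and Fabp9 had means below Fabp1. Fabp5 averaged 5.35 ± 1.60 FPKM, Fabp4 5.09 ± 1.16 FPKM and the ileal bile acid binder Fabp6 3.37 ± 0.514 FPKM (SD, n = 4 each).

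Fabp2 was the member with the widest spread over the libraries. Its mean of 22.8 ± 14.0 FPKM (SD, n = 4) joined 3 libraries between 14.5 and 16.8 FPKM with fresh frozen 2 at 43.7 FPKM, whose confidence bounds of 41.2 and 46.3 FPKM did not reach the others. On the scale of log2(scaled FPKM + 1), the 2 fresh-frozen libraries differed by 1.42 for Fabp2, and 63 of 13771 genes (0.457%) were at least as far apart between them. Summed markers of enterocytes and colonocytes, 8 of 8 of them on in every library and none at 0, were at 6635 to 7283 FPKM in RVC and 5013 to 6406 FPKM in fresh frozen, lowest in the library where Fabp2 was highest. The part of that difference in the Fabp2 value was not tested.

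Triglyceride synthesis was represented by Dgat1 (ENSMUSG00000022555, chromosome 15, 76386215 to 76396153), which attaches the last fatty acid to diacylglycerol. It was the most even of the abundant members, at 14.1 and 13.4 FPKM in RVC and 12.7 and 11.6 FPKM in fresh frozen, with a mean of 12.9 ± 1.08 FPKM (SD, n = 4). The groups did not overlap, but the highest library was only 1.22 times the lowest. Of its 12 transcripts, the single one annotated as coding carried a mean of 75.8% of the gene's FPKM, 6 retained-intron transcripts 16.1% and 5 transcripts without a defined coding sequence 8.06%. The coding transcript alone averaged 9.83 ± 1.22 FPKM (SD, n = 4).

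Assembly of the particle joined the most abundant member to one at the threshold. Apob (ENSMUSG00000020609, chromosome 12, 8027648 to 8066835), the structural protein around which a chylomicron is built, measured 30.1 and 16.7 FPKM in RVC and 26.6 and 21.2 FPKM in fresh frozen. The mean was 23.7 ± 5.88 FPKM (SD, n = 4), and the RVC libraries lay on either side of both fresh-frozen libraries. A mean above that of Apob was found for 2391 of the 21553 protein-coding genes. The 13934-nt transcript, with 29 exons, carried 87.9% to 91.3% of the Apob value in each library. A 1118-nt transcript of the 5′ end took 6.33% in RVC 1 and 1.07% in fresh frozen 2.

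Mttp (ENSMUSG00000028158, chromosome 3, 137795615 to 137850729), whose product loads lipid onto apolipoprotein B, measured 0.846 and 0.737 FPKM in RVC and 1.18 and 1.15 FPKM in fresh frozen. Its mean was 0.978 ± 0.220 FPKM (SD, n = 4). The groups did not overlap, which was also so for 53.2% of the 13771 genes tested between the groups. A 2012-nt retained-intron transcript carried 23.7% to 45.5% of that value. The 2 coding transcripts together measured 0.512 and 0.562 FPKM in RVC and 0.642 and 0.660 FPKM in fresh frozen, below 1 FPKM in every library. Apob exceeded Mttp in all 4 libraries, by 35.6-fold in RVC 1, 22.7-fold in RVC 2, 22.5-fold in fresh frozen 1 and 18.5-fold in fresh frozen 2.

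**Figure D2:**
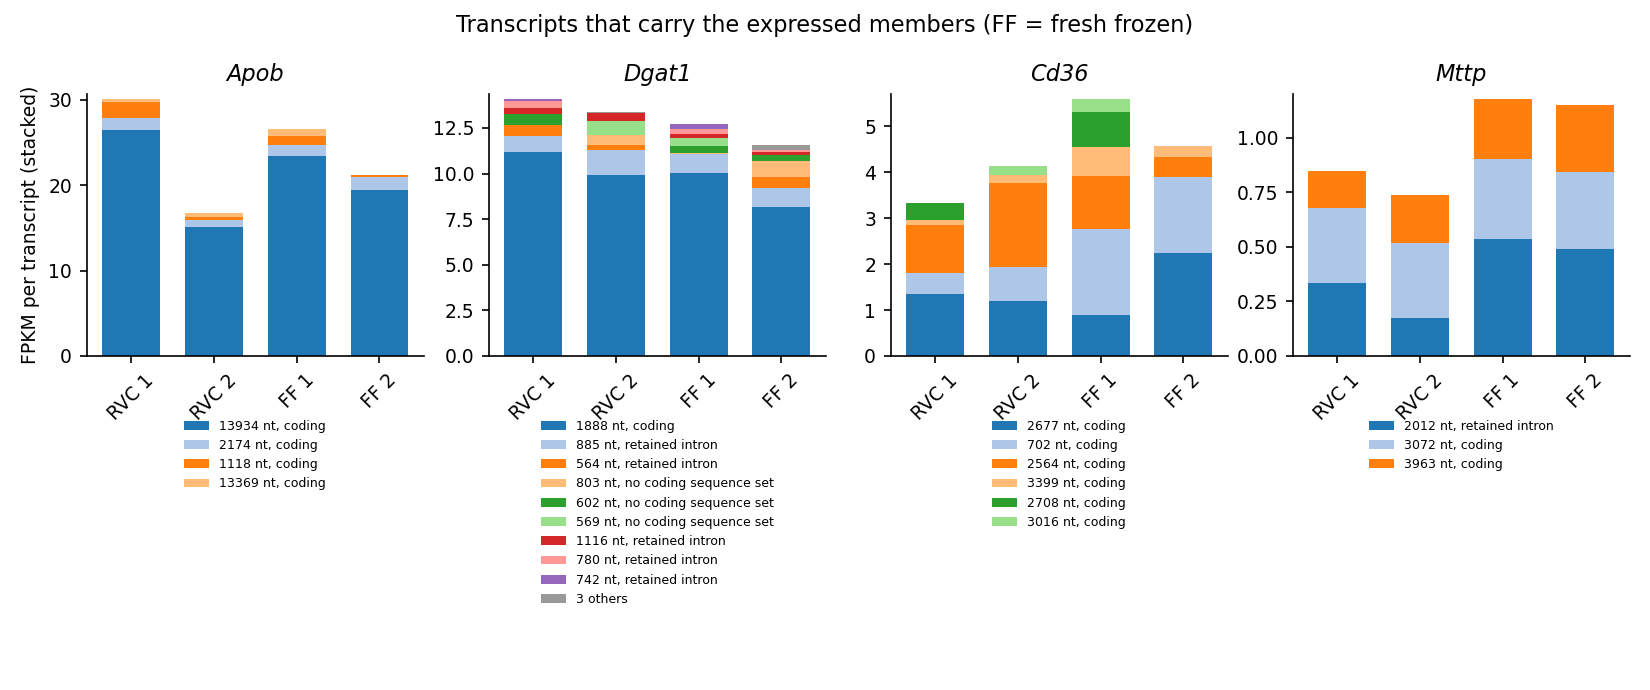
FPKM of each transcript, stacked to the gene value, for Apob, Dgat1, Cd36 and Mttp in the 4 libraries (each panel has its own axis, from 0). Colours are transcripts by length and type, and transcripts that never reached 2% of their gene are pooled where present. The 13934-nt transcript carries most of Apob, and a retained-intron transcript carries 23.7% to 45.5% of Mttp.

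The division of Cd36 among its 6 coding transcripts changed from library to library. The 2677-nt transcript took 48.8% in fresh frozen 2 and 15.8% in fresh frozen 1, and the 2564-nt transcript ran from 9.68% to 44.4%. Cufflinks divides reads that match several transcripts by likelihood, and the results for Cd36 here use the sum over its transcripts.

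The exchangeable apolipoproteins of the list lie side by side on chromosome 9 and were all near 0. Apoa1 (ENSMUSG00000032083, 46139878 to 46141764), the main protein of high-density lipoprotein, was listed at 0 in RVC 1 and measured 0.0870, 0.0940 and 0.0340 FPKM in RVC 2, fresh frozen 1 and fresh frozen 2. Apoc3 (ENSMUSG00000032081, 46144231 to 46146934), an inhibitor of lipoprotein lipase, was listed at 0 in RVC 2 and measured 0.212, 0.144 and 0.332 FPKM in RVC 1, fresh frozen 1 and fresh frozen 2. Apoa4 (ENSMUSG00000032080, 46151994 to 46154757), an abundant chylomicron protein of the small intestine, was listed at 0 in all 4 libraries.

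The genes at either edge of that cluster were on. Sik3, a kinase gene just before Apoa1, averaged 8.09 ± 0.988 FPKM, and Zpr1, just beyond Apoa5, averaged 5.66 ± 0.510 FPKM (SD, n = 4 each). Apoa5, an activator of triglyceride breakdown in plasma that is known from liver, was above 0 only in RVC 2, at 0.0347 FPKM. So 4 neighbouring apolipoprotein genes, within 46139878 to 46183217, were below 1 FPKM in every library between neighbours that were above it in every library.

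**Figure D3:**
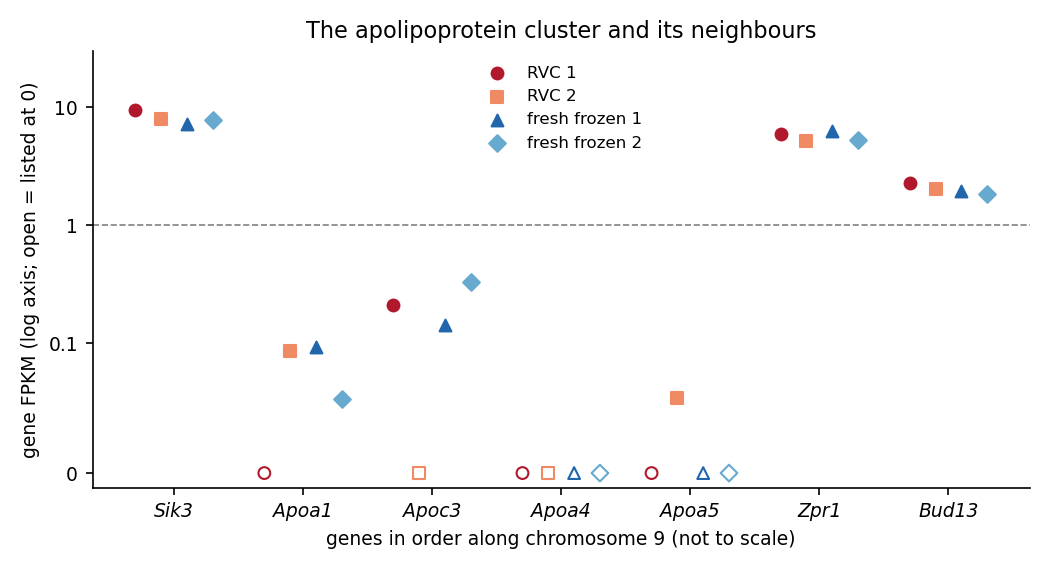
Gene FPKM (log axis) of the genes of the chromosome 9 apolipoprotein cluster and its neighbours, in their order along the chromosome, with 1 point per library. Open symbols are values listed at 0. Apoa1, Apoc3, Apoa4 and Apoa5 lie below 1 FPKM (dashed line) in all 4 libraries, and Sik3, Zpr1 and Bud13 above it.

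In order of mean level the members ran Apob, Fabp2, Dgat1, Cd36, Mttp, Apoc3, Fabp1, Apoa1, Npc1l1 and Apoa4. Apob and Fabp2 overlapped over the libraries, and Apob was the higher in 3 of 4. From Fabp2 down to Apoc3 each neighbour was lower in every library and the ranges did not overlap, although the lowest Fabp2 value exceeded the highest Dgat1 value by only 0.432 FPKM. From Apoc3 downward the ranges of neighbours overlapped, so the order among the genes near 0 is not fixed by these data.

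The other genes of fat absorption were described from a list of 81 genes, of which 79 were found. Of these, 65 (82.3%) were at 1 FPKM or more in all 4 libraries, 5 in some and 9 in none, where the share over protein-coding genes was 50.5%. The list was made of well-known genes, so its share is no measure of the pathway against other genes. Beside Apob, 13 of the 14 genes listed for particle assembly and export from the ER were on in all 4 libraries. The exception, Pla2g12b, measured 0.717 and 0.650 FPKM in RVC and 0.219 and 1.83 FPKM in fresh frozen. P4hb, which encodes the protein disulfide isomerase that partners the Mttp product, averaged 107 ± 2.55 FPKM, and Cideb, a lipid droplet protein of lipoprotein-making cells, 48.5 ± 7.80 FPKM (SD, n = 4 each). Apobec1, which edits Apob mRNA so that the short chylomicron form is made, averaged 39.3 ± 5.60 FPKM, and Sar1b, a coat GTPase needed for chylomicron export, 46.4 ± 6.47 FPKM (SD, n = 4 each). Pla2g12b, Apobec1 and Sar1b, and the genes named below other than the 2 most abundant of each role, were picked after their values were seen.

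In fatty acid uptake and activation 12 of 13 genes were on, led by the acyl-CoA binding protein gene Dbi at 212 ± 19.0 FPKM and the acyl-CoA synthetase gene Acsl3 at 109 ± 4.09 FPKM (SD, n = 4 each). In triglyceride synthesis 8 of 11 were, led by Agpat1 at 38.2 ± 3.74 FPKM and Agpat2 at 30.1 ± 3.93 FPKM (SD, n = 4 each), which add a fatty acid to lysophosphatidic acid. Mogat2, the main monoacylglycerol acyltransferase of fat absorption, was off in every library at 0.222 ± 0.102 FPKM, whereas Dgat2, a second enzyme for the step of Dgat1, averaged 17.0 ± 3.15 FPKM (SD, n = 4 each). So the enzymes of the last step were on and the monoacylglycerol enzymes Mogat1 and Mogat2 were below 1 FPKM in all 4 libraries.

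Of 9 genes for uptake, esterification and export of cholesterol, 7 were on in every library. Soat1 and Soat2 both encode enzymes that esterify cholesterol, and Soat2 is the form known from small intestine and liver. Soat1 averaged 45.8 ± 7.45 FPKM and Soat2 0.246 ± 0.0979 FPKM (SD, n = 4 each). Npc2, a lysosomal cholesterol carrier, averaged 42.7 ± 6.26 FPKM (SD, n = 4). Among 5 other apolipoproteins, 3 were on, with Apoe at 52.9 ± 14.0 FPKM and Apoc2, a cofactor of lipoprotein lipase, at 11.9 ± 2.46 FPKM (SD, n = 4 each).

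Of 9 lipid droplet genes 6 were on, with the droplet coat gene Plin2 at 140 ± 18.7 FPKM and the triglyceride lipase gene Pnpla2 at 38.7 ± 6.19 FPKM (SD, n = 4 each). Among 18 transcription factors 16 were on, led by Hnf4a at 173 ± 16.3 FPKM and Klf5 at 140 ± 12.5 FPKM (SD, n = 4 each). Hnf4a is known as an activator of apolipoprotein genes. It was on in the same libraries in which Apoa1, Apoa4 and Apoc3 were near 0 and Apob, Apoe, Apoc1 and Apoc2 were on. Gata4, a factor of the proximal small intestine, was off at 0.0947 ± 0.0360 FPKM (SD, n = 4), whereas Gata6 was on at 9.92 ± 0.588 FPKM (SD, n = 4).

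**Figure D4:**
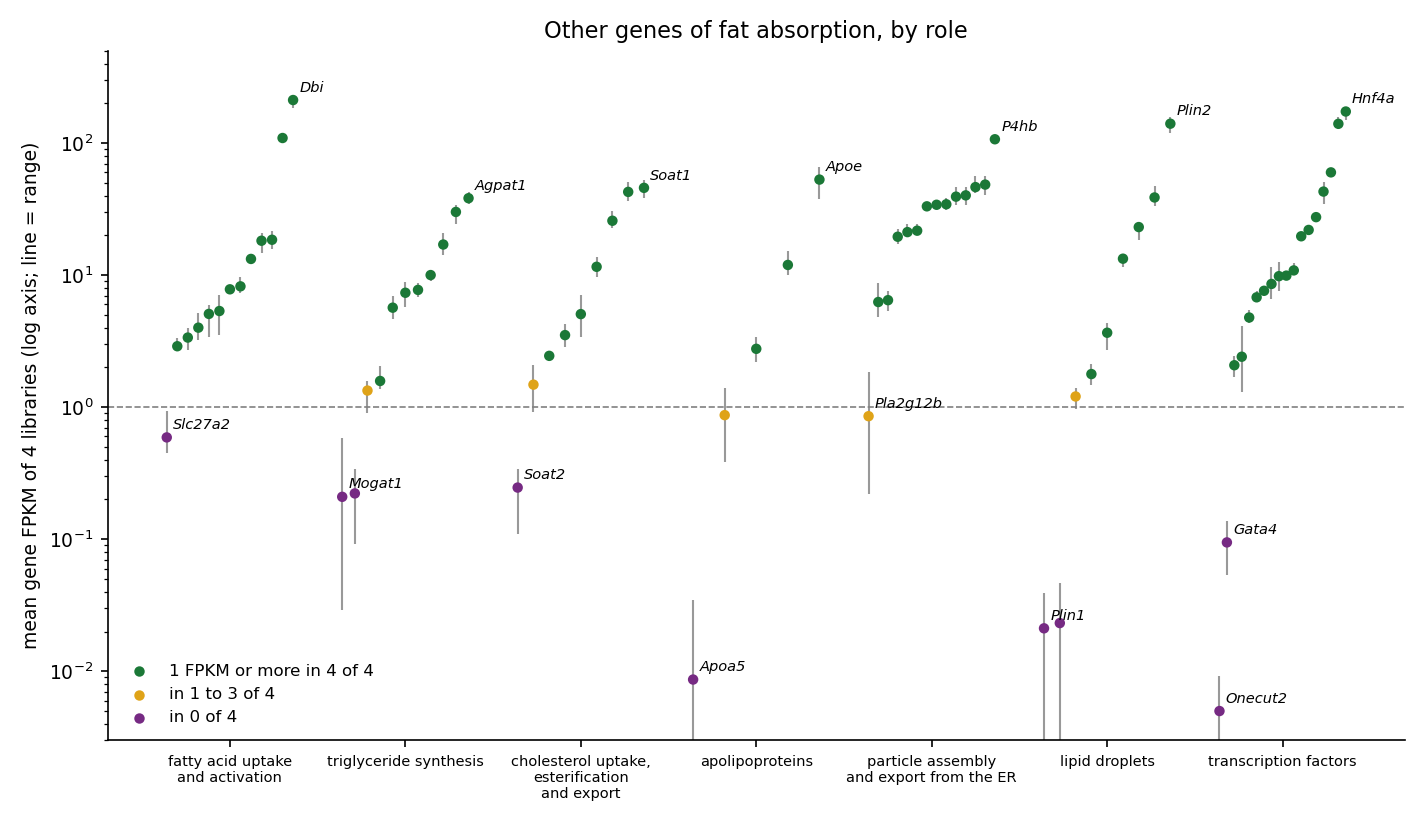
Mean gene FPKM over 4 libraries (log axis) of the 79 other fat absorption genes, by role, with lines for the range over libraries (lines that go to the lower edge reach 0 or values off the axis). Green genes are at 1 FPKM or more in all 4 libraries (65 genes), yellow in some (5) and purple in none (9), and the dashed line is 1 FPKM. The lowest and highest gene of each role is named, with Gata4.

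RVC and fresh-frozen libraries were compared on log2(FPKM + 1) after median-ratio scaling, with limma over all 13771 genes that had a mean of at least 1, so fold changes of low genes are understated. Of the members, Apob, Fabp2, Dgat1 and Cd36 passed that filter. None of these 4 had a limma adjusted p under 0.05, where 5 genes, or 0.0363%, did over all genes. At an unadjusted p under 0.05 there was 1 of 4 members, Cd36, where 18.4% of all genes passed. Cd36 missed that threshold without RVC 1 (limma p 0.249) or without fresh frozen 1 (limma p 0.200), and with the sample number as a block (limma p 0.0573) Fabp2 passed in its place (limma p 0.0288). Groups did not overlap for Dgat1 and Cd36, or 2 of 4, where 53.2% of all genes did not, so neither count of these 4 genes reads as more than the background.

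Cd36 was lower in RVC by a log2 fold change of -0.36 (SE 0.151, limma adjusted p 0.268, lower in both RVC libraries), with a 95% interval of -0.72 to -0.0050. Dgat1 stood at 0.17 (SE 0.113, limma adjusted p 0.427), with an interval of -0.093 to 0.44. For Apob the value was -0.071 (SE 0.250, limma adjusted p 0.903), with an interval of -0.66 to 0.52. Its sign turned with single libraries left out, from -0.48 without RVC 1 to 0.068 without fresh frozen 1 and 0.34 without RVC 2. Its RVC libraries differed from each other by 0.82 on the log2 scale, and 1.17% of all genes were at least as far apart between them. Summed smooth muscle markers, 8 of 8 on in every library and none at 0, were 1116 FPKM in RVC 1 and 1660 FPKM in RVC 2, where Apob was lower, and 688 to 740 FPKM in fresh frozen. Their part in the Apob value was not tested.

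Fabp2 had a log2 fold change of -0.73 (SE 0.392, limma adjusted p 0.352), with an interval of -1.65 to 0.20. The value rested on fresh frozen 2. Without that library the fold change was -0.020 (limma adjusted p 0.954). Without fresh frozen 1, which leaves fresh frozen 2 alone in its group and assumes that it varies like the RVC pair, the fold change was -1.44 and the limma adjusted p 0.0149. Mttp, whose mean missed the filter, had a fold change of -0.27 (SE 0.126) in a fit of 31792 genes with no filter on low values, at a limma adjusted p of 0.528.

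Of the other fat absorption genes, 68 were tested and 0 had a limma adjusted p under 0.05. At an unadjusted p under 0.05 there were 12 (17.6%), 10 higher and 2 lower in RVC. Over all genes the share was 18.4%, with 1292 higher and 1238 lower. The difference between these splits was not tested. The median log2 fold change of the 68 genes was 0.065 where that of all genes was 0.0066. The lowest limma adjusted p was that of Apoe, 0.129, with a log2 fold change of 0.66 (SE 0.121, higher in both RVC libraries). Apoe is made by macrophages, whose marker sums, given above, were also higher in both RVC libraries. The groups overlapped for the macrophage markers Csf1r, Mrc1 and Cd163. The part of macrophages in the Apoe value was not tested. The cholesterol exporter genes Abcg5 and Abcg8 had fold changes of 0.62 (SE 0.151) and 0.61 (SE 0.150), each at a limma adjusted p of 0.138. With 2 libraries in each group the smallest p that an exact two-sided permutation test allows is 1 in 3, so no gene was tested that way.

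**Figure D5:**
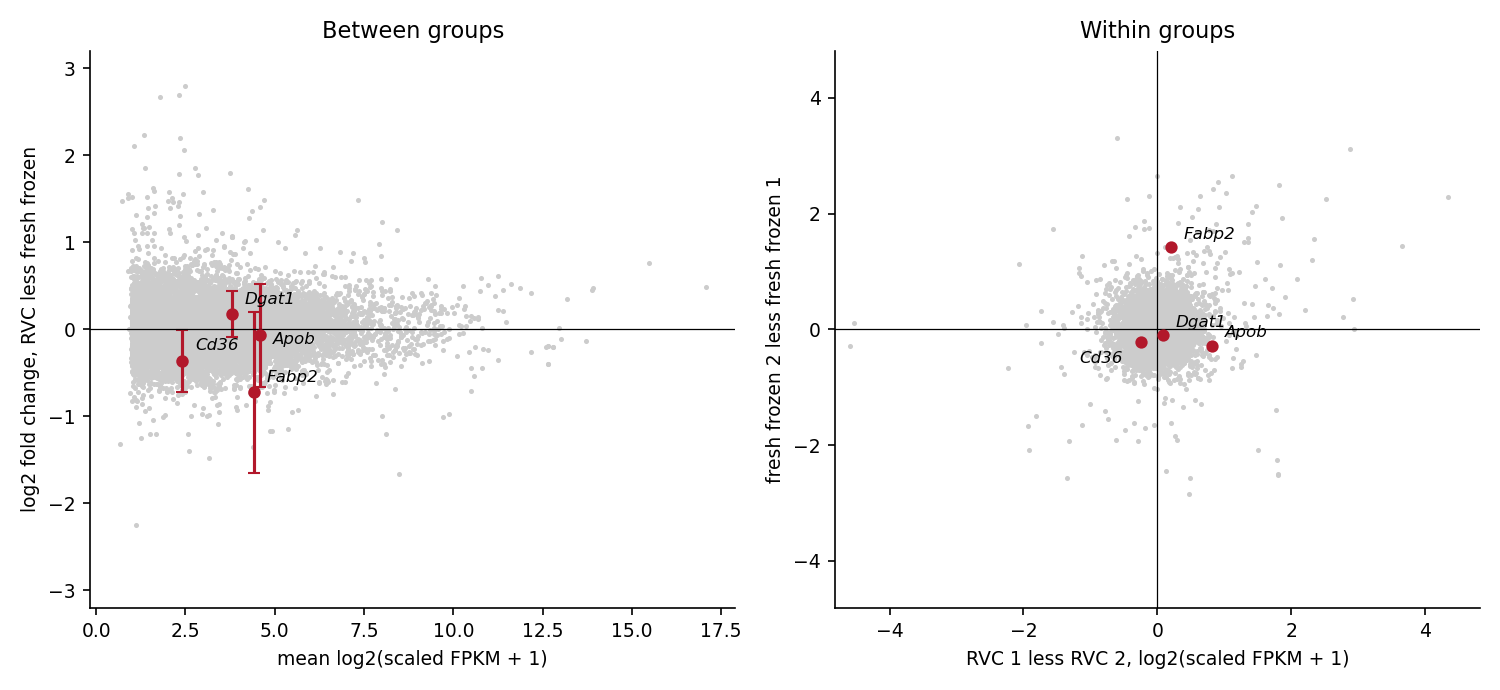
Left, log2 fold change of RVC less fresh frozen against the mean of log2(scaled FPKM + 1) for 13771 genes (grey), with the 4 tested members in red and their 95% intervals. Right, the difference of RVC 1 less RVC 2 against that of fresh frozen 2 less fresh frozen 1 for the same genes. Fabp2 stands at 1.42 on the vertical axis of the right panel and Apob at 0.82 on the horizontal axis.

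The genes with values most like those of 2 members over the 4 libraries were named by the smallest root mean square difference of log2(scaled FPKM + 1). For Apob, the member with the highest mean, these were Septin2 (0.196), Tnks1bp1 (0.203) and Cgn (0.207), a gene of tight junctions. For Fabp2, the member with the widest range, they were Clca3b (0.357), Igkv5-48 (0.409) and Slc4a7 (0.429). Clca3b, of a family of calcium-activated chloride channel regulators, had scaled values of 19.3 and 19.9 FPKM in the RVC libraries against 23.2 and 40.1 FPKM in the fresh-frozen ones. With 4 libraries and 13771 genes to choose from, such matches only describe these libraries.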

How the data were processed

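Total RNA was sequenced after depletion of ribosomal RNA, as 150-bp read pairs, per the labels' protocols. The authors aligned reads with TopHat2 2.1.1 to GRCm39 and estimated abundance with Cufflinks 2.2.1, per the submitters' processing notes. The annotation release, strand setting and read numbers are not given in the sources used here. Deposited values were FPKM per transcript with lower and upper FPKM bounds, per the file headers. The deposited coverage signal was not used. Starts are counted from 1, and transcript types are from GENCODE M39.

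Gene FPKM was the sum over transcripts, and all transcripts of the 10 members had status OK. A gene was on in a library at 1 FPKM or more. Tests used limma 3.58.1 in R 4.3.3 on log2(scaled FPKM + 1), with a mean-variance trend, median-ratio scaling, a mean of at least 1, a longest transcript of at least 300 nt and Benjamini-Hochberg adjustment over all genes, two-sided. Count models were not applied, because FPKM is a normalized unit. The fit was also run on simulated data with planted changes and normal noise, drawn from the variances that the same fit had estimated. That run therefore cannot test whether these libraries meet the assumptions of the fit. Other software was pandas 2.3.3 and matplotlib 3.10.9.

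All 10 members are named. Of the other genes of each role, the rule named the 2 with the highest mean and any listed at 0 throughout (there were 0). Nearest genes were named for the members of highest mean and widest range, passing over predicted genes. The members and lists were chosen with earlier results of these data known. A list of 8 hepatocyte markers was also read (2 on in all libraries, summed level 27.6 to 35.4 FPKM, Fga and Fgb listed at 0). Alternatives were a pseudocount of 0.1, other scaling and filters, no trend, transcripts under 300 nt left out, a replicate block, other thresholds, single transcripts, and each library left out. Coding transcripts alone and a crossed block were added after the data were seen.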

Additional observations from a re-analysis of the deposited data

Results flagged for a closer look

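Fabp2 stood at 43.7 FPKM in fresh frozen 2, far above the other 3 libraries, which ran from 14.5 to 16.8 FPKM. Its gap to the next library was 0.921 of the whole range, above Dixon's 95% critical value for 4 values. The 10 members were examined in this way, and chance alone flags about 1 in 20 such groups. The 4 libraries were treated as 1 group for this check because no group held more than 2.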

How the results depend on the processing

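Over all genes, 5 calls between RVC and fresh frozen became 0 in limma with no filter on low values (3531 genes at an unadjusted p under 0.05), without a trend (2461) or with transcripts under 300 nt left out (2577), and 2 at a mean of at least 5. With the sample number as a replicate block there were 112 calls, and with a crossed block, added after the data were seen, 12. Across 13771 genes, the difference of RVC 1 less RVC 2 and that of fresh frozen 1 less fresh frozen 2 had a Pearson correlation of -0.134. This gave no sign that same-numbered libraries vary together. With 2 libraries in each group it cannot decide whether the numbers pair the samples. Leaving out a library gave 8 (RVC 2), 22 (fresh frozen 2), 29 (RVC 1) or 40 calls (fresh frozen 1), each time with 1 library alone in its group and assumed to vary like the other group. Among members there were 0 calls with 0 to 2 at an unadjusted p under 0.05 under every setting that kept all libraries, and 0 to 1 calls with a library left out, the 1 being Fabp2 without fresh frozen 1 (-1.44). The cause was not tested. The fold change of Apob changed sign with a library left out, from -0.48 without RVC 1 to 0.068 without fresh frozen 1 and 0.34 without RVC 2. The block changed no adjusted call of a member. At an unadjusted p under 0.05 Cd36 was also missed with upper-quartile scaling (0.0501) and with no filter (0.0723). Of 58 recomputed counts 47 stayed within 1.5 times, where a count of 0 that remained 0 was taken as staying. The count of calls over all genes moved under most settings. Of 80 mean levels 75 stayed within 1 SD. Leaving out 1 of 4 libraries cannot move a mean by 1 SD, and no member transcript was under 300 nt, so many of the 80 could not move. Neither total is therefore a measure of stability. Taking only the most abundant transcript moved Dgat1 to 9.83, Cd36 to 1.83 and Mttp to 0.428 FPKM, and coding transcripts alone gave 9.83 FPKM for Dgat1 and 0.594 FPKM for Mttp. Depth limits the 5 genes near 0, whose lower bounds were 0.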

Other observations

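Fabp2 was 1 of 15 genes, of 13771, that stood at least 2-fold above all 3 other libraries in fresh frozen 2 on the log2(scaled FPKM + 1) scale. The same count was 20 in RVC 1, 16 in RVC 2 and 8 in fresh frozen 1. Of the 15 genes, 10 were immunoglobulin variable genes. The other 5 were Fabp2, the water channel gene Aqp4, the secreted matrix protein gene Ccn3, Apol10a and Hmga1b, named after their values were seen. For Aqp4 the scaled values were 32.8 and 30.1 FPKM in RVC against 37.2 and 101.4 FPKM in fresh frozen. For Ccn3 they were 2.41 and 2.71 FPKM in RVC against 2.47 and 10.7 FPKM in fresh frozen. Apob, Dgat1 and Cd36 were not among the 15.

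Of the markers of ileum and other small intestine, Fabp6, Slc10a2, Anpep and Enpep were low but on in all 4 libraries, beside Fabp2. Fabp6 stood between 2.70 and 3.96 FPKM and Slc10a2, the ileal bile acid transporter gene, between 2.33 and 3.07 FPKM over the 4 libraries, so Fabp6 exceeded Fabp1 in each. Sis, the sucrase-isomaltase gene, was off in every library. It measured 0.0190, 0.0194, 0.0492 and 0.161 FPKM in RVC 1, RVC 2, fresh frozen 1 and fresh frozen 2. Lct, Defa24, Gata4 and Fgf15 were also off in every library, and Cps1 was on in 3. Creb3l3, a factor that activates Apoa4 and other lipid genes in liver and intestine, averaged 2.41 ± 1.26 FPKM (SD, n = 4), with a range of 1.30 to 4.15 FPKM, while Apoa4 was listed at 0.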
